A study of Homo sapiens with 4 samples.

Results

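The sodium pump and ion channels of the colon were described here by 6 genes out of the 58998 genes in the deposited table. These were ATP1B1, ATP1B3, SLC12A2, KCNQ1, KCNN4 and CFTR, found by their gene symbols and all present in the table. They had been chosen with their values in these same libraries known, so every value below is a description, with no test of a difference between conditions. RNA-seq was performed on HT-29, an established human colorectal cancer cell line, and NCM460, an established human cell line described as normal colon. Each line was sequenced untreated (control) and after 24 h with 100 μg/mL sturgeon chondroitin sulfate (SCS), a sulfated sugar chain of cartilage, which gave 4 libraries with 1 library for each condition. The labels name 1 culture medium scheme with fetal bovine serum for both lines, whereas the methods of the study give NCM460 more serum than HT-29. Line and serum therefore cannot be told apart in a comparison between the lines.

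Epithelial cells of the colon move salt and water by placing pumps and channels on opposite faces. The sodium pump, made of a catalytic alpha and a glycosylated beta subunit, pushes sodium out and brings potassium in at the basolateral face, and the gradient it builds drives the other steps. For secretion, the basolateral cotransporter NKCC1 loads chloride, the chloride leaves through an apical channel such as CFTR, and basolateral potassium channels recycle the potassium and hold the voltage that chloride exit needs.

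ATP1B1 and ATP1B3 encode the beta 1 and beta 3 subunits of the pump. SLC12A2 encodes NKCC1, a cotransporter of sodium, potassium and chloride, and is thus no channel. KCNQ1 encodes a voltage-gated potassium channel that works with the KCNE3 subunit in the colon. KCNN4 encodes a potassium channel opened by calcium, and CFTR encodes the chloride channel opened by cyclic AMP and protein kinase A. In the coordinates of the table, which match GRCh38, ATP1B1 (ENSG00000143153) spans chr1:169105697-169132722, ATP1B3 (ENSG00000069849) chr3:141876124-141926514, SLC12A2 (ENSG00000064651) chr5:128083766-128189688, KCNQ1 (ENSG00000053918) chr11:2444684-2849109, KCNN4 (ENSG00000104783) chr19:43766533-43781257 and CFTR (ENSG00000001626) chr7:117465784-117715971. KCNN4 lies on the minus strand and the other genes on the plus strand.

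The 250 bases before the start site were read from a table of RefSeq promoters (GRCh38.p14) for 5 of the 6 genes, all but KCNQ1. They are printed for CFTR, SLC12A2 and ATP1B1, which were lower in HT-29 with SCS and higher in the HT-29 than in the NCM460 control, and for KCNN4, which was read in NCM460 only. The positions are chr7:117479775-117480024 on the plus strand for CFTR, chr5:128083516-128083765 on the plus strand for SLC12A2, chr1:169106440-169106689 on the plus strand for ATP1B1 and chr19:43780974-43781223 on the minus strand for KCNN4. The windows of CFTR, ATP1B1, KCNN4 and ATP1B3 lie inside the gene spans given above. For these genes the RefSeq start site differs from the end of the span in the table. Capitals mark matches to TGACNTCA, to CCAAT, to GGGCGG, the GC box, and to the TATA box TATAAA, each searched on both strands. TGACNTCA, where N is any base, is a loose pattern for the cyclic AMP response element.
CFTR: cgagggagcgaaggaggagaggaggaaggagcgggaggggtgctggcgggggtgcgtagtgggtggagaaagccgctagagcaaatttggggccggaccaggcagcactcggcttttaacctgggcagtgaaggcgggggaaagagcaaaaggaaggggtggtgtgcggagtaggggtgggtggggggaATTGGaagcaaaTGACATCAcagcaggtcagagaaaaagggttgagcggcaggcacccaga
SLC12A2: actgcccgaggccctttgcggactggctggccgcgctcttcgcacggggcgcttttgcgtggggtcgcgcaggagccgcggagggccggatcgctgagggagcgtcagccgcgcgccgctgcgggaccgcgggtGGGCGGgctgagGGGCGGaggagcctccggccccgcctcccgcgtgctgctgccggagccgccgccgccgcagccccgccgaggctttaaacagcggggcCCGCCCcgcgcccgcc
ATP1B1: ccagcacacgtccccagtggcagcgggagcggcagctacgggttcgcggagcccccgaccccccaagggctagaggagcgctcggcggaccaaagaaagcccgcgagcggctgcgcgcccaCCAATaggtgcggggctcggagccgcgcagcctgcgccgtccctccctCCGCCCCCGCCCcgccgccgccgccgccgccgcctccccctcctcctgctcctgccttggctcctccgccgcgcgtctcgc
KCNN4: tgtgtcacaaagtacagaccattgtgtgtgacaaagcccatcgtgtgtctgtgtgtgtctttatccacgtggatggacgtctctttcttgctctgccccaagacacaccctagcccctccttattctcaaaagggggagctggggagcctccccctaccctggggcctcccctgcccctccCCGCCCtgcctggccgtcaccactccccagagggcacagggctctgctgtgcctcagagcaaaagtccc
TGACNTCA was matched once, in CFTR as TGACATCA with its first base 49 bases before the start site. Of the 35116 RefSeq promoters of this length, 6.87% held a match to this loose pattern. CFTR also held CCAAT on the other strand (ATTGG, 61 bases before the start site) and had no GC box. SLC12A2 held 3 GC boxes, ATP1B1 held 2 GC boxes and a CCAAT, ATP1B3 held 4 GC boxes and a CCAAT, and KCNN4 held 1 GC box. A GC box was present in 42.6% of all promoters and CCAAT in 32.0%. TATAAA was found in none of the 5 windows and in 10.7% of all promoters, and no match overlapped a match to another motif. The windows of ATP1B1, ATP1B3 and SLC12A2 had a GC content of 77.6%, 77.2% and 79.6%, and those of KCNN4 and CFTR 60.0% and 61.2%, against a median of 58.0% over all promoters. Such matches are letters in a window, and no binding was measured.

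The libraries held 1164447 to 1669814 fragments over 18660 loci, of which 512770 to 1397847 were nuclear. The mitochondrial share was 35.5% in the HT-29 control and 13.7% with SCS, and 62.1% in the NCM460 control and 45.9% with SCS. It was thus lower with SCS in each line and higher in NCM460, and its part in the results was not tested. Levels are given as CPM, fragments scaled to a common library size, with TMM factors over the 4 libraries. Log2 fold changes carry exact Clopper-Pearson 95% intervals, which cover counting error only and not the variation between cultures. A locus passed the rule of this report when its fold was over 1.5 and its interval did not include 0. In these bulk libraries, fewer cells of a kind and less RNA per cell cannot be told apart. All 7 general epithelial markers were above 3 fragments in every library. Of these, CLDN7 has the same values as GABARAP, CTDNEP1 and other neighbours, and KRT18 the same as AC107016.1, so these cannot be told apart. Of 7 intestinal epithelial markers, the 4 above 3 fragments in each HT-29 library were VIL1, LGALS4, KRT20 and HNF4A. In both NCM460 libraries CDX2 (14 and 12 fragments) was the only one, and VIL1, LGALS4 and KRT20 were at 0 there. CDX2 was at 0 in both HT-29 libraries, and CDX1 was at 0 in all 4 libraries.

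**Figure D1:**
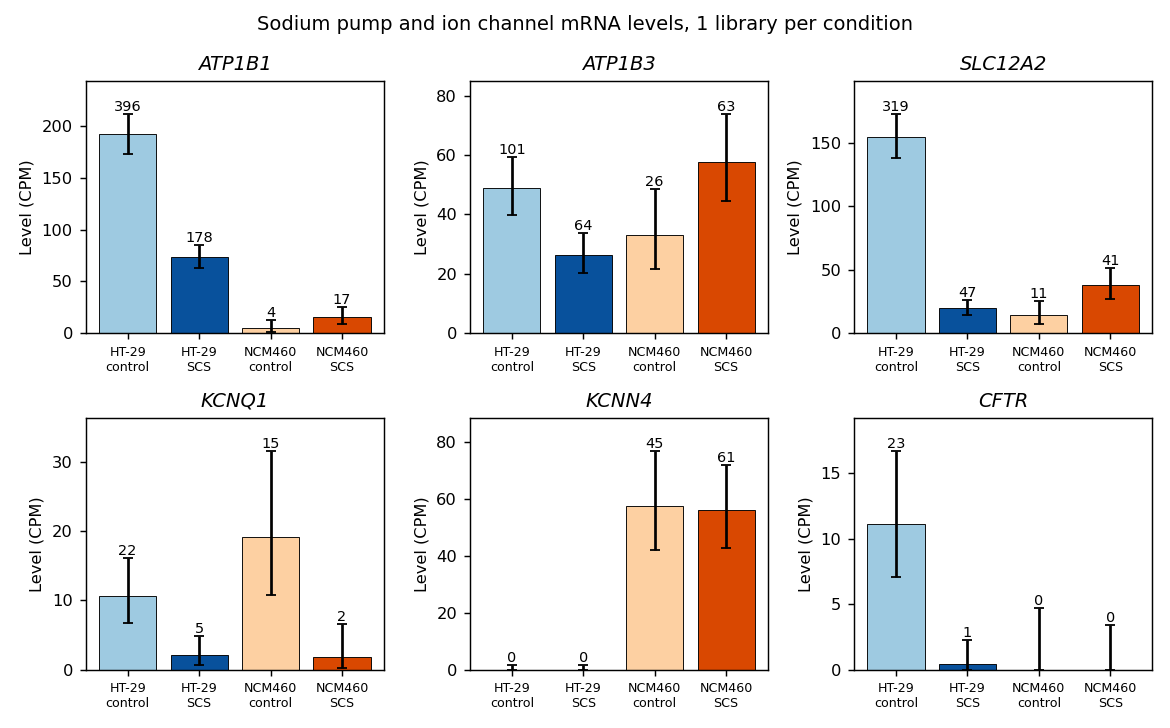
Level of each of the 6 genes in the 4 libraries, in CPM after TMM scaling, with 1 panel for each gene and its own axis starting at 0. Bars are single libraries, error bars are exact 95% counting intervals and the numbers above them are fragments. ATP1B1, SLC12A2 and CFTR were highest in the HT-29 control, KCNN4 was read in the NCM460 libraries only, and KCNQ1 was low in both SCS libraries.

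The order of the genes differed between the untreated lines. Per length of transcript, as the deposited FPKM gives it, the HT-29 control had ATP1B1 first at 90.6 FPKM, followed by ATP1B3 at 31.6, SLC12A2 at 23.7, KCNQ1 at 3.18, CFTR at 1.44 and KCNN4 at 0. In the NCM460 control, KCNN4 came first at 47.9 FPKM, followed by ATP1B3 at 27.6, KCNQ1 at 6.91, SLC12A2 at 4.69, ATP1B1 at 3.56 and CFTR at 0. ATP1B3 was thus second in both controls, whereas ATP1B1 led in HT-29 only and KCNN4 in NCM460 only.

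To describe the effect of SCS in the cancer line, the HT-29 library with SCS was compared with the HT-29 control. ATP1B1, ATP1B3, SLC12A2, KCNQ1 and CFTR were each lower with SCS and passed the rule, and KCNN4 had no fragment in either library. Over all 12197 loci tested in HT-29, 31.5% passed the rule and 14.8% did so as lower. The genes had been chosen on this same comparison, so nothing is read from 5 of 5 being lower. CFTR passed the minimum of 1 CPM, set on the mean of the libraries compared, through its control library.

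SLC12A2 had 319 fragments (155 CPM) in the HT-29 control and 47 (19.4 CPM) with SCS. Its HT-29 intervals lay far apart in the plot of levels by library, and the level was 7.55-fold lower with SCS (log2 fold change −2.92, 95% interval −3.47 to −2.55). CFTR, the apical exit for the chloride that NKCC1 brings in, had 23 fragments (11.2 CPM) and 1 fragment (0.413 CPM). The ratio was 27.0-fold lower, but with a single fragment its interval on the log2 scale ran from −10.12 to −2.13.

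The beta subunits of the pump were lower by less. ATP1B1 had 396 fragments (192 CPM) in the HT-29 control and 178 (73.5 CPM) with SCS, a 2.59-fold lower level (log2 −1.37, −1.65 to −1.13). ATP1B3 had 101 fragments (49.0 CPM) and 64 (26.4 CPM), a 1.81-fold lower level (log2 −0.86, −1.37 to −0.42). Both beta subunits were thus lower in the HT-29 library with SCS. Among the regulatory FXYD subunits, FXYD5 was the one with over 5 CPM and went the other way, from 76 to 143 fragments (log2 0.66, 0.27 to 1.10).

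For the potassium channels, KCNQ1 had 22 fragments (10.7 CPM) in the HT-29 control and 5 (2.07 CPM) with SCS, with a log2 fold change of −1.84 (−4.13 to −0.93). Its partner KCNE3 had 6 and 3 fragments, and the interval of its ratio included 0 (−3.86 to 1.00 on the log2 scale). KCNN4 had 0 fragments in both HT-29 libraries, which allows a level of up to 1.46 CPM in the control and 1.24 CPM with SCS (3 fragments), so no fold is given. KCNQ1 overlaps KCNQ1OT1, a long noncoding RNA made from the opposite strand, and strand-specific counting is not stated, so that their reads may not be fully separated. KCNQ1OT1, which is outside the genes named by rule, had 192 fragments in the HT-29 control and 547 with SCS (log2 1.27, 1.04 to 1.52), the opposite direction to KCNQ1. ATP1B1 overlaps NME7 (11 and 20 fragments) and CFTR overlaps CTTNBP2 (4 and 0 fragments), and no gene overlapping ATP1B3, SLC12A2 or KCNN4 had more than 1 fragment in any library.

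**Figure D2:**
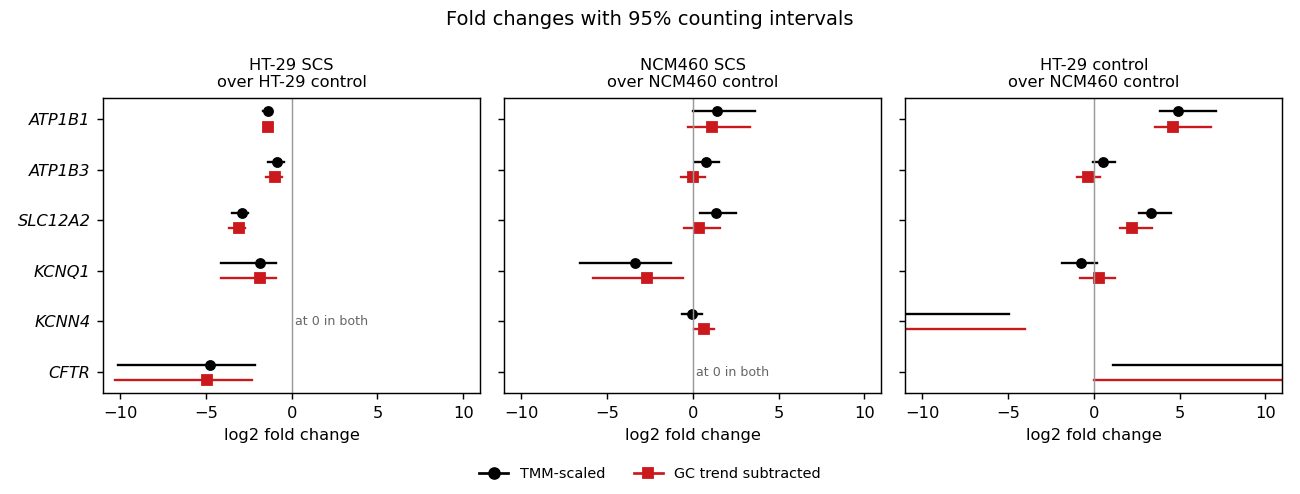
Log2 fold change of each gene with its 95% counting interval, for SCS over control in HT-29, SCS over control in NCM460 and the HT-29 control over the NCM460 control. Circles are TMM-scaled values, squares have the trend of all loci with GC content subtracted, lines without a symbol are bounds against a library at 0. In HT-29 the 5 measured genes lay below 0 in both versions, whereas in NCM460 ATP1B3 and SLC12A2 lay above 0 and moved toward 0 once the trend was subtracted.

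In the line described as normal, the NCM460 library with SCS was compared with the NCM460 control. SLC12A2 and ATP1B3 were higher and KCNQ1 was lower by the rule, ATP1B1 and KCNN4 did not pass it, and CFTR was at 0 in both libraries. Over all 12688 loci tested in NCM460, 29.2% passed the rule, with 15.4% higher and 13.8% lower. Fold changes between the NCM460 libraries followed the GC content of the transcript over loci (Spearman's rho −0.63 over 12249 loci, against −0.13 over 11745 loci in HT-29), a description of 1 pair of libraries. With this trend subtracted, 12.5% of the loci passed in NCM460 (5.73% higher, 6.79% lower) and 30.6% in HT-29, and the values after subtraction are given beside each gene. The part of the trend in the changes of single genes was not tested.

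SLC12A2 had 11 fragments (14.0 CPM) in the NCM460 control and 41 (37.6 CPM) with SCS, a log2 fold change of 1.35 (0.44 to 2.53). With the GC trend subtracted this was 0.38 (−0.53 to 1.57) and did not pass. ATP1B3 had 26 fragments (33.2 CPM) and 63 (57.8 CPM), a log2 fold change of 0.78 (0.12 to 1.52) that became −0.01 (−0.67 to 0.73) after subtraction. Neither increase held under this processing. The GC content of the transcripts was 41.2% for SLC12A2 and 42.8% for ATP1B3, and its part in these changes was not tested.

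ATP1B1 had 4 fragments (5.10 CPM) in the NCM460 control and 17 (15.6 CPM) with SCS, and the interval of its log2 fold change of 1.40 reached just below 0 (−0.01 to 3.64). After subtraction of the GC trend its log2 fold change was 1.13 (−0.28 to 3.36). ATP1B1 passed under 4 of 9 other ways of processing, among them scaling by total fragments (log2 1.88). Another of the 4 was the deposited FPKM (log2 1.23), which has no interval and was judged on fold alone. The altered filters among the 9 left its value unchanged.

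KCNQ1 was lower by the rule in both lines. It had 15 fragments (19.1 CPM) in the NCM460 control and 2 (1.83 CPM) with SCS, a ratio 10.4-fold lower with a log2 interval of −6.56 to −1.28. After subtraction of the GC trend the log2 ratio was −2.65 (−5.82 to −0.55) and still passed, with a transcript of 63.7% GC. KCNQ1OT1 on the opposite strand had 14 and 62 fragments in NCM460 (log2 1.60, 0.82 to 2.62), again in the opposite direction, and its part in the counts of KCNQ1 was not tested. KCNE3 was at 0 in both NCM460 libraries, which allows up to 3.83 CPM in the control and 2.75 CPM with SCS.

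KCNN4 was the member with nearly equal levels in the NCM460 libraries, with 45 fragments (57.4 CPM) in the control and 61 (55.9 CPM) with SCS. Its log2 fold change was −0.04 (−0.62 to 0.55), but its direction depended on the processing, since subtraction of the GC trend gave 0.67 (0.08 to 1.25), which passed as higher. CFTR was at 0 in both NCM460 libraries, with the same upper limits of 4.71 and 3.38 CPM.

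To describe the lines before treatment, the HT-29 control was compared with the NCM460 control. ATP1B1, SLC12A2 and CFTR were higher in HT-29 and KCNN4 was lower, against 48.5% of 12721 loci that passed in either direction, 25.3% as higher and 23.2% as lower. The genes had been chosen with these values known, so nothing is read from their number. CFTR and KCNN4 reached the minimum of 1 CPM only through the control in which they were read. ATP1B3 and KCNQ1 did not pass. With the GC trend subtracted, 37.9% of the loci passed (18.5% higher, 19.4% lower), and CFTR no longer did.

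ATP1B1 had 396 fragments in the HT-29 control and 4 in the NCM460 control, a 30.4-fold higher level (log2 4.93, 3.87 to 7.12, and 4.63 after subtraction of the GC trend). SLC12A2 had 319 and 11 fragments, a 10.2-fold higher level (log2 3.35, 2.60 to 4.48, and 2.24 after subtraction). CFTR had 23 and 0 fragments, at least 2.92-fold higher against the floor of 3 fragments in the NCM460 control before the counting error of the 23 fragments. Its exact interval began at 2.19-fold, and after subtraction of the trend the interval reached below 0 on the log2 scale. KCNN4 ran the other way with 0 and 45 fragments, at least 39.5-fold lower in HT-29 against the floor of 3 fragments before the counting error of the 45 fragments. Its exact interval ended at 30.8-fold lower, a log2 value of −4.94, and at −4.04 after subtraction.

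ATP1B3 and KCNQ1 were closer in level. ATP1B3 had 101 and 26 fragments and differed by 0.55 on the log2 scale (−0.07 to 1.24), which turned to −0.36 with the GC trend subtracted. KCNQ1 had 22 and 15 fragments and differed by −0.77 on the log2 scale (−1.85 to 0.21), which turned to 0.27. No direction between the lines is given for these genes.

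Ordered by CPM over the 4 libraries, ATP1B1 ran from the HT-29 control through HT-29 with SCS and NCM460 with SCS to the NCM460 control, and its NCM460 libraries did not differ beyond counting error. SLC12A2 ran from the HT-29 control through NCM460 with SCS and HT-29 with SCS to the NCM460 control, and the level of HT-29 with SCS (19.4 CPM) and the NCM460 control (14.0 CPM) did not differ beyond counting error. ATP1B3 had the narrowest range as a fold, 26.4 to 57.8 CPM, and no pair of neighbours in its order differed. For KCNQ1 the controls did not differ from each other, nor did the SCS libraries (2.07 and 1.83 CPM), while the HT-29 control lay above HT-29 with SCS.

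The balance of the beta subunits was then compared within each library, which needs no scaling between libraries. ATP1B1 made up 79.7% of the fragments of ATP1B1 and ATP1B3 in the HT-29 control (exact 95% interval 75.9% to 83.1%) and 73.6% with SCS (67.5% to 79.0%). The share was 13.3% in the NCM460 control (3.76% to 30.7%) and 21.3% with SCS (12.9% to 31.8%). The lines were on opposite sides of an even mix, the SCS and control intervals overlapped within each line, and shares of the deposited FPKM, which account for length, were 74.1%, 69.2%, 11.4% and 19.98% in the same order. ATP1B2 and ATP1B4, the other beta genes in the list, had at most 1 fragment in any library.

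**Figure D3:**
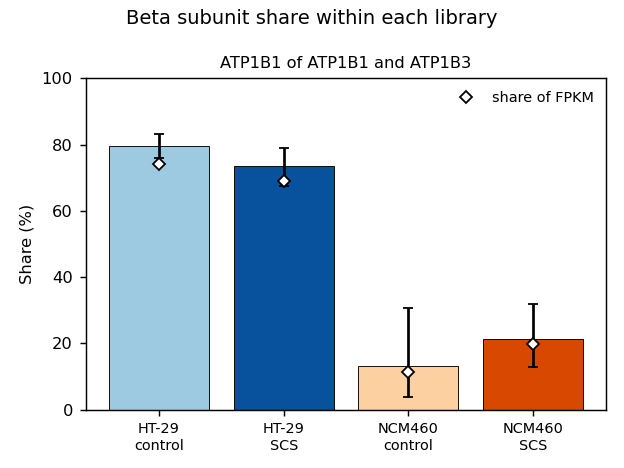
Share of ATP1B1 among the fragments of ATP1B1 and ATP1B3, in percent for each library. Bars are shares of fragments with exact 95% intervals and diamonds are shares of the deposited FPKM. ATP1B1 made up 73.6% or more in the HT-29 libraries and 21.3% or less in the NCM460 libraries.

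Other genes of epithelial ion transport were taken from a list of 88 genes in 9 groups, the 6 genes included. In HT-29, 48 loci of the list were tested, of which 6 were higher and 16 lower with SCS, beside 16.7% higher and 14.8% lower over all loci, and 5 of the 16 had been chosen on this comparison. Without the 6 genes these were 6 higher and 11 lower of 43, with a median log2 fold change of −0.10 beside 0.07 over all loci tested. Subtraction of the GC trend gave 6 higher and 10 lower in HT-29, where 14.6% and 15.9% of all loci passed. The median was then −0.05 beside 0.005. In NCM460, 5 were higher and 8 lower of 45 without the 6 genes, with a median of −0.22 beside 0.03, where 15.4% and 13.8% of all loci passed. After subtraction of the GC trend 4 and 3 passed with a median of −0.09, where 5.73% and 6.79% of all loci passed. Between the controls, 14 were higher and 12 lower in HT-29 of 46, beside 25.3% and 23.2% of all loci. After subtraction these were 15 higher and 7 lower, beside 18.5% and 19.4%, and the change between the controls followed GC content with a rho of −0.51 over 12291 loci.

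Of the other cotransporters of the NKCC1 family, SLC12A4, the carrier KCC1, was the lowest of the group in NCM460, with 30 and 28 fragments, and did not pass (log2 −0.55, −1.37 to 0.22). Between the controls SLC12A4 was lower in HT-29 (log2 −1.41, −2.29 to −0.70), and with the GC trend subtracted it did not pass (−0.54).

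Among the chloride channels and anion exchangers of the list, 3 of 5 loci tested were lower in HT-29 with SCS and none was higher. Over all loci these shares were 14.8% lower and 16.7% higher. Of the 3, 1 was CFTR, which had been chosen with its value known. The 3 lower loci were CFTR, ANO1, the chloride channel opened by calcium, with 353 and 108 fragments (log2 −1.91, −2.27 to −1.63), and CLCN2, a chloride channel opened by voltage, with 35 and 12 (log2 −1.55, −2.86 to −0.80). SLC26A6, an anion exchanger, had 16 and 31 fragments and did not pass (log2 0.64, −0.19 to 1.69). In the NCM460 control ANO1 had 3 fragments, which set the HT-29 control 44.7-fold higher as a ratio (log2 5.48, 3.92 to 7.77). SLC26A2, a sulfate transporter, went from 1 to 18 fragments in NCM460 (log2 ratio 3.69, 1.03 to 9.07), and after subtraction its interval included 0 (2.58, −0.08 to 7.97).

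The other potassium channels in HT-29 moved in both directions. KCNK6, a leak channel, was higher with SCS, at 86 against 29 fragments (log2 1.26, 0.71 to 1.997), opposite to KCNQ1. KCNK1, a related leak channel, had 28 and 68 fragments in HT-29 (log2 0.98, 0.39 to 1.74), and in NCM460 its 10 and 25 fragments did not pass (log2 0.79, −0.26 to 2.07). KCNK5, also a leak channel, had 39 and 27 fragments in HT-29 (log2 −0.70, −1.53 to −0.02), lower by the rule but not after subtraction of the GC trend (−0.65). In the NCM460 control it had 7 fragments, against 39 in the HT-29 control (log2 0.99, −0.09 to 2.49), which passed only after subtraction of the GC trend (1.72).

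Of the regulators of these transporters, SGK1, the kinase that raises sodium transport in response to hormones and serum, had 276 fragments in the HT-29 control and 56 with SCS (log2 −2.47, −2.97 to −2.11). NEDD4L, the ubiquitin ligase that SGK1 inhibits, had 121 and 56 (log2 −1.30, −1.83 to −0.87), and the other 5 loci of this group tested in HT-29 did not pass, among them WNK1, which controls NKCC1 through other kinases (468 and 532 fragments, log2 −0.05, −0.23 to 0.14). In NCM460, SGK1 had 14 fragments in both libraries, and its log2 fold change of −0.44 (−1.65 to 0.70) passed as lower only after subtraction (−1.41). STK39 and OXSR1, the kinases that act on NKCC1 directly, were higher in NCM460 with SCS, from 22 to 76 fragments (log2 1.27) and from 7 to 36 (log2 1.75), and both passed also after subtraction (0.93 and 1.31). In HT-29, STK39 and OXSR1 did not pass.

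Sodium absorption, bicarbonate handling and water channels gave single genes rather than whole groups. In HT-29 with SCS, SLC9A3R1, a scaffold of sodium transporters, was lower (179 and 127 fragments, log2 −0.71), and SCNN1A, a subunit of the sodium channel ENaC, had 225 and 373 fragments with a fold of 1.41, under the rule. Of the carbonic anhydrases, CA2 was higher (12 and 34, log2 1.11) and CA9 lower (24 and 6, log2 −1.79). VIPR1, a receptor that raises cyclic AMP, was lower (45 and 19, log2 −1.34), as was AQP3, a channel for water and glycerol (238 and 160, log2 −0.79). In NCM460 with SCS, the bicarbonate carriers SLC4A7 (11 and 76 fragments, log2 2.21) and SLC4A2 (118 and 51, log2 −1.66) passed in opposite directions and did so also after subtraction (0.95 and −0.96). Between the controls, CA12 (281 fragments in HT-29 and 1 in NCM460, log2 ratio 6.74, 4.25 to 12.05) and AQP3 (238 and 5, log2 3.93, 2.94 to 5.81) were higher in HT-29.

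The remaining genes at the ends of their groups were mostly of lower counts. In HT-29, CAB39, an activator of the STK39 kinase, had 107 and 180 fragments and a fold of 1.42, under the rule, and PRKACA, the catalytic subunit of protein kinase A, had 56 and 61 (log2 −0.10). In NCM460, PRKACA (85 and 66 fragments, log2 −0.83) and FXYD5 (80 and 45, log2 −1.28) were lower by the rule and neither passed after subtraction of the GC trend. FXYD7, CLCN2, SCNN1A, VIPR1, AQP1 and AQP3 did not pass there, with log2 values of −1.39, −1.15, −0.25, 0.75, −1.05 and −0.18. Between the controls, SGK1 (log2 2.82), SCNN1A (1.48) and VIPR1 (ratio 2.51) were higher in HT-29 with and without subtraction. CA2 (log2 −1.77), SLC26A6 (−1.64) and the adenosine receptor ADORA2B (ratio −3.56) were lower in HT-29 with and without it, while WNK2 (−1.92) and AQP1 (−1.45) were lower only without it. The table gives FXYD7 the same values as FXYD1, SLC12A4 the same as LCAT and AQP1 the same as its neighbour INMT, so these cannot be told apart.

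Finally, the loci with the most similar pattern over the 4 libraries were found by the distance between centred log2 CPM values, among 6707 loci averaging at least 10 CPM. The nearest to ATP1B1 were RUNX2 (83, 29, 0 and 3 fragments, distance 0.31) and RAB15 (distance 0.35), and to ATP1B3 they were ATP5F1 (distance 0.06) and EGLN1 (distance 0.07). FANCI and ATAD2 were nearest to SLC12A2 (distances 0.77 and 0.78), AC009133.15 and PAQR4 to KCNQ1 (0.63 and 0.65), and MAGEB2 (0, 0, 43 and 66 fragments, distance 0.13) and OLFM2 (0.23) to KCNN4. CFTR, with 24 fragments in all, was under the minimum of 30 for this comparison. With 4 libraries such a likeness describes these libraries only.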

How the data were processed

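RNA-seq of HT-29 and NCM460 cells with and without SCS was analysed, with 1 library for each of 4 conditions. The submitters' processing notes name bcl2fastq 2.17.1.14, cutadapt 1.9.1, Bowtie2, HTSeq 0.6.1 and hg19, whereas the methods of the study name Cuffdiff. The coordinates match GRCh38, since 94.2% of the loci found in GENCODE 29 by gene ID had both ends within 5 bases. The authors deposited count columns that hold a signal, fragment counts divided by a size factor for each library, beside deposited FPKM values (fragments scaled by transcript length and library size). The design had assumed whole counts. Division by the worth of 1 fragment (0.686, 0.577, 2.04 and 1.33 for control and SCS in HT-29, then in NCM460) gave whole fragments for 100.0% of the values in each library, within a tolerance of 0.02 or the rounding of the file. Rows with no gene name (0.00581% to 0.0352% of the fragments) were left out. Genes of a chromosome with identical values in every column were counted once, which gave 18660 loci, 1771 of them with more than 1 gene. Summed over all rows with a gene name, with repeated values counted each time, the libraries held 4240178 to 9370221 fragments. Over the loci they held 1164447 to 1669814, and the mitochondrial shares refer to the loci. The described genes were each a locus of their own.

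Fragments were scaled with TMM (edgeR 4.0.16, R 4.3.3) over the 4 libraries. Log2 fold changes used a prior count of 2, or the plain ratio where a library held 1 to 3 fragments, or the floor of 3 fragments where it held 0. Intervals were exact Clopper-Pearson intervals. A locus was tested where its mean reached 1 CPM and passed at a fold over 1.5 with an interval that excluded 0. In the main and GC-subtracted results, the fold in this rule and the list medians used the prior count of 2 for every locus. In the comparison of alternatives, the 6 genes were judged on the value given. With 1 library in each condition there is no replicate check within a line. A model with line and SCS as terms would leave 1 residual degree of freedom and ask for an SCS effect shared by both lines. It was not fitted, since the genes had been chosen on these same comparisons. The GC trend was a lowess curve (span 0.3) of the log2 fold change on the GC content of the longest GENCODE 29 transcript. Named genes were the 6 genes, partner subunits such as KCNE3, the highest and lowest gene of each list group averaging 5 CPM or more, and the 2 nearest loci to each gene with at least 30 fragments. A few further genes of the list are named beside these, chosen after their values were seen, and some genes of the list are not reported here by name. The genes and lists were chosen with earlier results of these data known. The procedure was tested on simulated data that held counting error only. With no variation between cultures and no GC trend in them, they cannot show how the procedure deals with either. Alternatives to the procedure were DESeq2 1.42.0 size factors, total or nuclear fragments, another prior count, the GC trend, thinning to the smallest nuclear total, other filters and FPKM (pseudocount 0.1).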

Additional observations from a re-analysis of the deposited data

Results flagged for a closer look

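ATP1B3 and SLC12A2 stood out because their counting intervals lay on opposite sides of 0 in the lines. The log2 fold change of ATP1B3 with SCS was −0.86 in HT-29 cells and 0.78 in NCM460 cells. For SLC12A2 it was −2.92 in HT-29 cells and 1.35 in NCM460 cells. With 1 library for each condition the difference between the lines was not tested. With the GC trend subtracted the NCM460 values were −0.01 and 0.38, and neither passed the rule, while the HT-29 values were −0.996 and −3.10.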

How the results depend on the processing

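The labels give no replicate numbers, and each comparison was of 1 library with 1 library, so none was fitted with a replicate block or with a library left out. A model with the line as a block, which would leave 1 residual degree of freedom, was not fitted. In HT-29 the 5 measured genes kept their direction under all 9 alternatives. They passed in each, although FPKM, which have no interval, were judged on fold alone. The altered filters could only repeat the main values. Log2 fold changes were −1.70 to −1.10 for ATP1B1, −1.35 to −0.60 for ATP1B3 and −3.10 to −2.36 for SLC12A2. They were −2.31 to −1.70 for KCNQ1 and −4.95 to −3.42 for CFTR. The study's supplement also lists ATP1B1 as lower with SCS in HT-29, by a smaller fold than the range given here. Over all comparisons, 122 of 142 values of the 6 genes under an alternative kept their direction and their side of the rule. This count includes the repeats under the altered filters and FPKM values judged on fold alone. KCNQ1 in NCM460 ranged from −4.10 to −1.35 and passed in each, where the FPKM value of −1.35 was judged on fold alone.

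With the GC trend subtracted, 1588 loci passed in NCM460 in place of 3702, ATP1B3 was at −0.015 and SLC12A2 at 0.38 there without passing, and KCNN4 passed as higher at 0.67. Between the controls ATP1B3 turned to −0.36 and KCNQ1 to 0.27, and CFTR against the floor was at 0.41 without passing. Scaling by total fragments moved the median of all loci by 0.26 in HT-29, 0.60 in NCM460 and 0.94 between the controls. It put ATP1B1 at 1.88 and KCNN4 at 0.63 in NCM460, both passing as higher, and between the controls ATP1B3 at 1.59 as higher and KCNQ1 at 0.22. Its medians of the ion transport list were 0.57 in NCM460 and 1.55 between the controls. Nuclear totals moved the median of all loci by −0.13, 0.16 and 0.29, and gave 1.55 for ATP1B1 and 0.14 for KCNN4 in NCM460 and 0.86 for ATP1B3 between the controls, of which ATP1B1 and ATP1B3 passed. Thinned libraries gave 1.38 for ATP1B1, passing, and 0.54 for ATP1B3, not passing, in NCM460. The deposited FPKM, with no interval, were past a fold of 1.5 for 6427 loci in HT-29, 8432 in NCM460 and 9375 between the controls, in place of 3843, 3702 and 6165. They gave 1.23 for ATP1B1, 0.30 for ATP1B3, 0.49 for SLC12A2 and −0.76 for KCNN4 in NCM460, a list median of −0.50 there, and −1.09 for KCNQ1 between the controls.

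The share of passing loci that were lower was 46.9% in HT-29, 47.3% in NCM460 and 47.8% between the controls. It was 26.1%, 6.05% and 14.97% with total fragments, 60.0%, 34.5% and 35.0% with nuclear totals, and 58.1%, 62.1% and 62.8% with FPKM. DESeq2's size factors moved the median between the controls by −0.11, and FPKM moved it by −0.19, −0.31 and −0.47 in the same order as above. The causes were not tested. At a floor of 1.24 to 3.83 CPM for 3 fragments, CFTR in NCM460 and KCNN4 in HT-29 can be given as bounds only, and the values resting on 1 to 5 fragments have intervals several log2 units wide.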
